A study of Saccharomyces cerevisiae BY4741 with 24 samples.

Results

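The glucose effect at 18 h compares RNA from Saccharomyces cerevisiae cultures that had grown for 18 h in rich medium (YPD) with 0.5% glucose against cultures grown for the same time with 2% glucose. Its members are 6 expression arrays, 3 per glucose level, chosen from the labels among the 24 arrays of a time course with harvests at 12, 18, 24 and 48 h, and every annotated gene of the species was followed, 5449 in all. The strain was BY4741, a laboratory haploid whose mating type is a and which carries deletions in the marker genes HIS3, LEU2, MET17 (also called MET15) and URA3 in both glucose groups. The 2% cultures are the study's control and the 0.5% cultures its caloric restriction, the same strain with no other agent. According to the labels the cultures were started at an optical density of 0.2 and shaken at 200 rpm at 30 °C, and the series design describes the arrays of a group as biological triplicates. Cell density and remaining glucose at the harvest are not used here, so the groups are matched by hours and not by growth stage.

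Yeast in glucose ferments it to ethanol even when oxygen is present, and glucose represses the genes for other carbon sources and for respiration. When glucose runs out, cells pass through the diauxic shift: growth pauses, repressed genes are switched on, ribosomal protein genes are turned down, and ethanol and acetate are then respired. Lowering the starting glucose is the usual way to impose caloric restriction on yeast and is known to lengthen chronological lifespan, the time for which cells that no longer divide stay viable. The study's stated question was which expression changes between these harvests go with the build-up of that longevity.

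All levels below are log2 signals on the arrays' common scale, and a change is the level in 0.5% glucose minus that in 2% glucose. Each change is given as estimate ± SE with limma's adjusted p, for 3 arrays per group. The SE comes from the spread within groups over all 24 arrays, moderated by limma. A gene thus has the same SE at each harvest, which is not the spread of its 18 h arrays alone. A gene is called higher or lower where its Benjamini-Hochberg adjusted p over all 5449 genes was under 0.05. By that rule 1388 genes (25.5%) were higher in 0.5% glucose and 1353 (24.8%) lower, which is 50.3% of the genes in either direction, so a list of genes has to be read against these shares. At least 2-fold changes were few, with 24 genes higher (0.44%) and 39 lower (0.716%). The 3 arrays of each level did not overlap for 28.7% of genes on the higher side and 28.2% on the lower side. The highest and lowest named genes were picked among these, and list genes by the size of their statistic. A lack of overlap in such genes is thus no separate support. The median absolute change was 0.16, with 0.30 at 12 h, 0.22 at 24 h and 0.48 at 48 h, so 18 h had the smallest typical glucose effect of the 4 harvests, and the median SE of 0.06 sets what can be called. At 18 h 5357 genes passed the background level of 2.29 in at least 1 group, below which lay 95% of signals from the 1746 probe sets for fission yeast, Schizosaccharomyces pombe.

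Because the arrays were quantile normalized, each change is relative to the other genes. In bulk RNA, fewer cells at a given growth stage and less of an RNA per cell cannot be told apart. The array has 12 poly-A spike-in probe sets, made for bacterial transcripts that are added to RNA. They were picked by name, and that the transcripts were added here was assumed. When arrays were instead put on the scale of these probe sets, the median change of all genes moved from -0.0015 to 0.16. On that scale 187 genes were called higher and 59 lower, and with the replicate number as a block, an alternative added after the data had been seen, 1847 were higher and 334 lower. Of the 1353 lower genes 142 had a positive value there, so the small falls depend on the scale. The spike-in means themselves differed by -0.16 (0.5% minus 2% glucose), with an SE of 0.26 between unpaired arrays and 0.06 between arrays paired by number. Where a list median changes sign on the spike-in scale, or loses most of its size there, that value stands beside it.

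**Figure D1:**
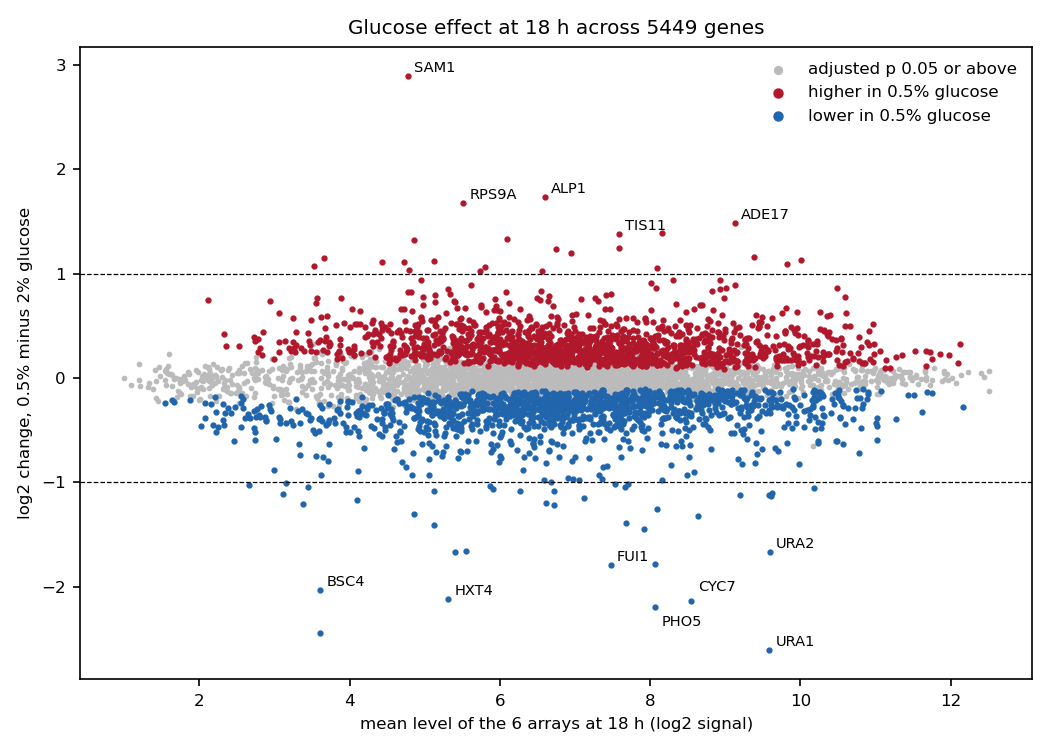
The change in 0.5% against 2% glucose at 18 h (vertical axis, log2) is plotted against the mean level of the 6 arrays (horizontal axis, log2 signal) for 5449 genes, with the 1388 higher genes in red, the 1353 lower genes in blue and the 2-fold limits dashed. Most called genes lie inside the 2-fold limits, SAM1 stands highest at 2.89 and URA1 is the lowest of the labelled genes at -2.61; on the spike-in scale all points move up by 0.16.

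The labelled strain was checked against its markers. The 7 a-specific genes were all above background, with group means from 5.57 to 9.75. The 4 alpha-specific genes were not all at background. MF(ALPHA)2 was (2.25 in 2% and 2.23 in 0.5% glucose), while MF(ALPHA)1 (3.05 and 3.06), STE3 (4.27 and 5.30) and SAG1 (6.60 and 6.53) were above it. URA3 at 1.43 and 1.33 and MET17 at 2.09 and 2.08 were below background at both glucose levels. LEU2 at 2.12 and 2.54 was near it, and HIS3 measured 5.36 and 5.15. The 7 marker genes of sporulating diploids were all above background, from SPO13 (2.92 in 2% and 2.91 in 0.5% glucose) and SPS1 (3.11 and 3.10) through SPO11 (4.11 and 4.07), IME2 (4.90 and 4.69), DMC1 (5.05 and 4.76) and NDT80 (5.77 and 5.82) to IME1 (7.16 and 7.33). The alpha and sporulation markers were thus mostly above background, and their part in the results was not tested.

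The largest change of a named gene at 18 h was in methionine and S-adenosylmethionine metabolism. S-adenosylmethionine is the methyl donor of the cell, made from methionine by a pair of synthetases, SAM1 and SAM2. SAM1 measured 3.46, 3.14 and 3.38 in 2% glucose and 6.04, 6.14 and 6.49 in 0.5% glucose. The groups were far apart, and SAM1 was 7.44-fold higher in 0.5% glucose (2.89 ± 0.11, adjusted p = 9.54e-15). SAM2, with the same activity, measured 5.25, 5.41 and 5.16 in 2% glucose and 6.44, 6.22 and 6.35 in 0.5% glucose, without overlap, and rose by 1.07 ± 0.09 (adjusted p = 3.34e-09). Of the 17 measured genes of the cycle 12 were higher and 4 lower, with a median change of 0.29 against -0.0015 over all genes, and 3 members rose at least 2-fold. The third was MMP1, the permease for S-methylmethionine, at 6.18, 5.99 and 5.98 in 2% glucose and 7.14, 6.97 and 7.12 in 0.5% glucose. MMP1 rose by 1.03 ± 0.06 (adjusted p = 4.84e-11), with all 0.5% arrays above all 2% arrays. The methionine permeases MUP1, of high affinity, and MUP3, of low affinity, rose by 0.84 ± 0.08 and 0.79 ± 0.09. MET6, the methionine synthase that methylates homocysteine, measured 8.31, 8.31 and 8.39 in 2% glucose and 9.13, 8.95 and 9.04 in 0.5% glucose and rose by 0.70 ± 0.05 (adjusted p = 1.63e-09). The 4 lower members, named after their values were seen, were SAM4 (-0.31), OPI3 (-0.27), CHO2 (-0.20) and SAM3 (-0.19). OPI3 and CHO2 are the methyltransferases that make phosphatidylcholine, and SAM3 is the S-adenosylmethionine permease.

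The genes of the sulfate assimilation list did not move as one group. MET17 is deleted in this strain in both groups and was below background. Of 21 sulfate assimilation genes 8 were higher, 3 lower and 10 not called, with a median of -0.01, 0.15 on the spike-in scale. CYS3, the cystathionine gamma-lyase that makes cysteine, measured 5.21, 5.43 and 5.65 in 2% glucose and 6.61, 6.70 and 6.97 in 0.5% glucose, and its lowest 0.5% array lay above its highest 2% array. Its change was 1.33 ± 0.11, a 2.52-fold difference (adjusted p = 4.71e-09). CYS4, the preceding enzyme, rose by 0.32 ± 0.04, MET2, which acetylates homoserine, by 0.68 ± 0.07, and MET32, a transcription factor of the sulfur genes, by 0.77 ± 0.13. The 3 lower members, named after their values were seen, were STR2 (-0.32), MET5 (-0.31) and MET14 (-0.22), and MET5 and MET14 belong to the reduction of sulfate itself.

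One-carbon folate metabolism, which carries the carbon for methionine and for the purine ring, had 7 of 15 members higher and 2 lower (median 0.12). SHM2, the cytosolic serine hydroxymethyltransferase, measured 8.80, 8.80 and 8.81 in 2% glucose and 10.09, 9.93 and 9.89 in 0.5% glucose. Its groups did not overlap, and it rose by 1.16 ± 0.06 or 2.24-fold (adjusted p = 4.7e-12). GCV1 and GCV2, subunits of the glycine cleavage system in mitochondria, rose by 0.85 ± 0.08 and 0.91 ± 0.10, and MTD1, a methylenetetrahydrofolate dehydrogenase, by 0.55 ± 0.06. SHM1, the mitochondrial counterpart of SHM2, and DFR1, dihydrofolate reductase, were the lower members, at -0.24 and -0.26, named after their values were seen.

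Purine and pyrimidine genes moved in opposite directions. Purine synthesis had 13 of 19 members higher and 2 lower, with a median of 0.43, the highest list median at 18 h. ADE17, which catalyses the last 2 steps to inosine monophosphate, measured 8.46, 8.34 and 8.35 in 2% glucose and 10.13, 9.79 and 9.67 in 0.5% glucose. All 3 of its 0.5% arrays were above the 2% arrays, a 2.8-fold difference (1.48 ± 0.11, adjusted p = 1.37e-09). ADE13, adenylosuccinate lyase, rose by 0.89 ± 0.06, ADE2, of the middle of the pathway, by 0.65 ± 0.05, and IMD3, an inosine monophosphate dehydrogenase of the guanine branch, by 0.94 ± 0.07. The lower members were BAS1 (-0.26), an activator of these genes, and ADE16 (-0.14), the isozyme of ADE17, both named after their values were seen. ADE16 was not lower on the spike-in scale, where every change shifts upward by more than its fall.

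Pyrimidine genes had 12 of 19 members lower and 1 higher (median -0.33), and 3 fell at least 2-fold. URA1, dihydroorotate dehydrogenase, measured 10.93, 10.85 and 10.89 in 2% glucose and 8.25, 8.29 and 8.31 in 0.5% glucose. The spread within each group was under 0.1 and the gap between groups 6.09-fold, a change of -2.61 ± 0.05 (adjusted p = 8.23e-20). URA2, which carries the first 2 activities of the pathway, measured 10.45, 10.37 and 10.45 in 2% glucose and 8.83, 8.68 and 8.76 in 0.5% glucose, again without overlap. It changed by -1.67 ± 0.06 (3.18-fold, adjusted p = 3.19e-15). FUI1, the uridine permease, measured 8.52, 8.31 and 8.28 in 2% glucose and 6.73, 6.53 and 6.46 in 0.5% glucose and changed by -1.79 ± 0.08 (adjusted p = 3.76e-13), with every 0.5% array below every 2% array. URA4, dihydroorotase, changed by -0.90 ± 0.05. FUR4, the uracil permease, and PPR1, the activator of the URA genes, both named after their values were seen, changed by -0.72 ± 0.09 and -0.63 ± 0.09. The single higher member was FUR1 (0.74 ± 0.07), the uracil phosphoribosyltransferase of the salvage route. URA3, which lies between URA5 and the later steps, is deleted in this strain in both groups and was below background.

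**Figure D2:**
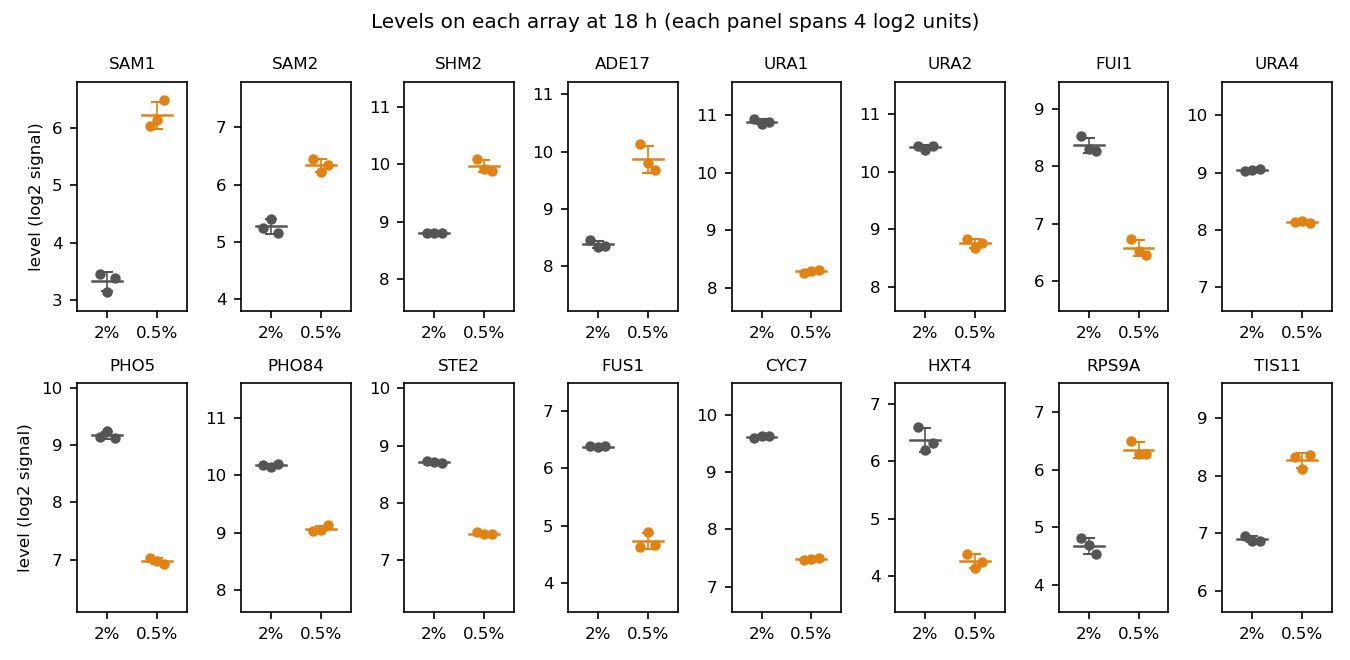
Each panel gives 1 gene, with the log2 signal of the 3 arrays in 2% glucose (grey) and the 3 arrays in 0.5% glucose (orange) at 18 h, the group mean as a line, the SD as a bar, and an axis that always spans 4 log2 units. The groups do not overlap in any of the 16 panels. For the highest and lowest named genes the rule of choice required this, so it is no separate support. SAM1, SAM2, SHM2, ADE17, RPS9A and TIS11 are higher in 0.5% glucose, the other 10 genes are lower, and none of the 16 changes sign on the spike-in scale.

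The phosphate regulon, which is switched on when inorganic phosphate is scarce, was lower in 0.5% glucose at its best-known targets. PHO5, the secreted acid phosphatase, measured 9.13, 9.24 and 9.12 in 2% glucose and 7.02, 6.98 and 6.92 in 0.5% glucose. The 2% arrays were all above 9 and the 0.5% arrays all near 7, and PHO5 changed by -2.19 ± 0.06, or 4.57-fold (adjusted p = 1.69e-17). PHO84, the high-affinity phosphate transporter, measured 10.18, 10.15 and 10.19 in 2% glucose and 9.04, 9.05 and 9.12 in 0.5% glucose, and its groups were also apart. It changed by -1.11 ± 0.07 (adjusted p = 1.14e-10), and PHO11, a second acid phosphatase on a probe set that can be shared with its near copy PHO12, by -0.99 ± 0.09. PHO8, the vacuolar alkaline phosphatase, changed by -0.44 ± 0.05. In this group 6 of 13 genes were lower and 1 higher, which was PHM8 (0.20, named after its value was seen), with a median of -0.14, 0.02 on the spike-in scale. The low-affinity carriers PHO87 (0.07), PHO90 (0.03) and PHO91 (-0.07), named after their values were seen, did not pass the test.

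Genes for polyphosphate, the vacuolar phosphate store, had 5 of 8 members lower (median -0.26, -0.10 on the spike-in scale). PHM6 measured 5.79, 5.91 and 5.76 in 2% glucose and 4.60, 4.43 and 4.21 in 0.5% glucose, without overlap, and changed by -1.40 ± 0.14 (adjusted p = 4.59e-08). VTC1 and VTC3, subunits of the polyphosphate polymerase, changed by -0.63 ± 0.04 and -0.66 ± 0.05, while PHM7 was the 1 higher member (0.38 ± 0.07). Of 10 regulators 7 were lower and 3 not called (median -0.22, -0.06 on the spike-in scale). They included SPL2 (-0.76 ± 0.06), which restrains low-affinity uptake, PHO81 (-0.42 ± 0.06), the inhibitor of the kinase that silences the regulon, and PHO80 (-0.32 ± 0.05), the cyclin of that kinase. PHO4, the transcription factor of the regulon, at -0.12 and named after its value was seen, did not pass the test. Neither PHO80 nor VIP1 (-0.27), an inositol pyrophosphate kinase, passed the threshold on the spike-in scale with the replicate block.

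The iron regulon was divided. It had 16 of 32 members higher and 10 lower (median 0.20). TIS11, an RNA-binding protein that promotes decay of messengers for iron-using proteins, measured 6.96, 6.87 and 6.86 in 2% glucose and 8.33, 8.12 and 8.35 in 0.5% glucose. Its groups did not overlap, and it rose by 1.38 ± 0.06 (adjusted p = 2.8e-14). FIT2 and FIT3, cell wall mannoproteins that hold iron-siderophores, rose by 1.13 ± 0.08 and 0.86 ± 0.06. FTR1, the permease of the high-affinity iron uptake complex, measured 6.14, 6.05 and 6.28 in 2% glucose and 6.88, 6.92 and 6.91 in 0.5% glucose, with the groups apart, and rose by 0.75 ± 0.05 (adjusted p = 2.33e-10). Genes named after their values were seen were FET3 (0.55), the oxidase partner of FTR1, among the higher, and FET4 (-0.85), a low-affinity iron transporter, and FRE3 (-0.71) and FRE2 (-0.51), surface reductases, among the lower.

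Mating genes were lower in 0.5% glucose. A cell of mating type a makes a-factor, its exporter and the receptor for alpha-factor, and binding of alpha-factor signals through a G protein and a kinase cascade to the transcription factor STE12. All 7 a-specific genes were lower, with a median of -0.68, 3 of them at least 2-fold. STE2, the alpha-factor receptor, measured 8.73, 8.72 and 8.70 in 2% glucose and 7.49, 7.46 and 7.46 in 0.5% glucose, with no overlap and little spread. It changed by -1.25 ± 0.06, or 2.38-fold (adjusted p = 2.4e-13). BAR1, the protease that degrades alpha-factor, measured 7.39, 7.30 and 7.29 in 2% glucose and 6.11, 6.09 and 6.14 in 0.5% glucose and changed by -1.22 ± 0.08 (adjusted p = 7.86e-11), the groups again apart. Both a-factor genes fell, MFA2 at -1.12 ± 0.06 and MFA1 at -0.40 ± 0.06; MFA1 lost its call on the spike-in scale with the replicate block. Of the 4 alpha-specific genes 1 was higher, STE3, the a-factor receptor of alpha cells, at 4.46, 4.36 and 3.98 in 2% glucose and 5.36, 5.37 and 5.18 in 0.5% glucose (1.04 ± 0.12, adjusted p = 3.01e-07).

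The signalling pathway had 9 of 16 members lower and 1 higher (median -0.16, -0.0032 on the spike-in scale). SST2, which damps the G protein, changed by -0.81 ± 0.08, FAR1, which arrests the cell cycle, by -0.68 ± 0.09, and STE12 by -0.35 ± 0.06, the last not passing on the spike-in scale with the replicate block. The exception was STE7, a kinase of the cascade, at 0.22 ± 0.04. Genes that the pathway induces for cell fusion had 8 of 17 lower and 2 higher (median -0.13, 0.03 on the spike-in scale). FUS1, a membrane protein needed for fusion, measured 6.38, 6.37 and 6.39 in 2% glucose and 4.63, 4.89 and 4.67 in 0.5% glucose. All 0.5% arrays were below 5 and all 2% arrays above 6, a 3.15-fold difference (-1.65 ± 0.07, adjusted p = 2.22e-14). AGA1, the anchor of the a-agglutinin, changed by -0.77 ± 0.09, FUS2 by -0.67 ± 0.08 and FIG2 by -0.53 ± 0.07. The higher members were KAR4 (0.29) and HYM1 (0.33), named after their values were seen.

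Ribosomal protein genes were mostly higher. The large subunit had 64 of 75 members higher and the other 11 not called, and the small subunit 40 of 53 higher and 1 lower, with medians of 0.33 and 0.32. Of these genes 13 and 15 were on probe sets that can be shared between near-identical copies. The median large-subunit level was 9.36, 9.27 and 9.23 on the 2% arrays and 9.68, 9.57 and 9.65 on the 0.5% arrays, so the 3 arrays of each glucose level stood apart. RPS9A rose the most, from 4.81, 4.68 and 4.53 to 6.50, 6.27 and 6.27, by 1.68 ± 0.13 or 3.2-fold (adjusted p = 1.37e-09). ASC1, a signalling protein on the small subunit, rose by 1.09 ± 0.05, RPL22A by 0.94 ± 0.08 and RPP0, of the ribosomal stalk, by 0.62 ± 0.05. The 1 lower gene was RPS28B (-0.18, named after its value was seen).

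Genes that build ribosomes did not follow. Ribosome biogenesis had 8 of 76 members higher, 13 lower and 55 not called, with a median of -0.01, 0.15 on the spike-in scale, that is 10.5% and 17.1% beside 25.5% and 24.8% over all genes. RRP1, a nucleolar processing factor, rose by 0.58 ± 0.10 and RRB1, a chaperone of a ribosomal protein, by 0.41 ± 0.09. RIO2, a kinase of late small-subunit assembly, and TIF6, of large-subunit assembly, changed by -0.39 ± 0.07 and -0.30 ± 0.05, and neither passed on the spike-in scale with the replicate block. RNA polymerases I and III, which transcribe ribosomal and transfer RNA, had 10 of 25 genes lower and 2 higher (median -0.11, 0.05 on the spike-in scale). RPC19, a subunit of both, measured 5.87, 5.68 and 5.92 in 2% glucose and 5.06, 5.17 and 5.15 in 0.5% glucose and changed by -0.70 ± 0.09 (adjusted p = 2.56e-06), without overlap of the groups. RPA43, of polymerase I, went the other way, at 4.32, 4.50 and 4.39 in 2% glucose and 5.28, 5.17 and 5.24 in 0.5% glucose (0.82 ± 0.09, adjusted p = 1.09e-07).

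Of 71 genes for mitochondrial ribosomal proteins 38 were higher and 2 lower (median 0.17). RSM19 measured 7.03, 7.11 and 7.05 in 2% glucose and 7.68, 7.79 and 7.71 in 0.5% glucose, with the groups apart, and rose by 0.66 ± 0.06 (adjusted p = 1.49e-08). MRPL19, MRPL38 and MRPL9 rose by 0.54, 0.46 and 0.38. Translation factors had 10 of 27 higher and 3 lower (median 0.09), among them TIF3, an initiation factor, at 0.47 ± 0.08 and CDC33, the cap-binding protein, at 0.30 ± 0.05.

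Most Hsp90 and Hsp70 chaperone genes were lower. HSP82, the inducible Hsp90, measured 10.69, 10.70 and 10.75 in 2% glucose and 9.64, 9.58 and 9.75 in 0.5% glucose. All 2% arrays were above all 0.5% arrays, and HSP82 changed by -1.06 ± 0.07, or 2.08-fold (adjusted p = 1.12e-10). Of 13 genes for Hsp90 and its co-chaperones 9 were lower and 4 not called (median -0.37), with HCH1 at -0.67 ± 0.08 and CPR6 at -0.47 ± 0.06. The Hsp70 and Hsp40 list had 13 of 21 lower and 3 higher (median -0.21, -0.05 on the spike-in scale). SSA2, a cytosolic Hsp70 made in growing cells, measured 7.43, 7.34 and 7.38 in 2% glucose and 6.54, 6.30 and 6.45 in 0.5% glucose and changed by -0.95 ± 0.09 (adjusted p = 4.91e-08), the groups apart. APJ1, an Hsp40, changed by -0.65 ± 0.05, FES1, a nucleotide exchange factor of Hsp70, by -0.63 ± 0.05, and SSA4, the stress-induced Hsp70, by -0.43 ± 0.06. The higher members, named after their values were seen, were LHS1 (0.26) and SIL1 (0.17), of the endoplasmic reticulum, and SSB1 (0.22), a ribosome-bound Hsp70 on a shared probe set.

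Small heat shock proteins, the disaggregase and chaperonins had 7 of 18 members lower and 2 higher (median -0.02, 0.14 on the spike-in scale). HSP31 and HSP42 changed by -0.82 ± 0.06 and -0.59 ± 0.05. HSP104, the disaggregase, changed by -0.38 ± 0.07 and HSF1, the heat shock transcription factor, by -0.34 ± 0.05; both lost their calls on the spike-in scale with the replicate block. HSP26 (0.01) and HSP12 (0.07), known markers of stress and glucose exhaustion named after their values were seen, did not pass the test. Proteasome genes had 10 of 33 lower and 23 not called, with a median of -0.05, 0.11 on the spike-in scale, and the largest fall among those named, RPT2, at -0.29, which did not pass on the spike-in scale with the block. Oxidative stress defence had 10 of 28 lower and 3 higher (median -0.06, 0.10 on the spike-in scale). TSA2, a peroxiredoxin, fell by 0.44, and CTT1, cytosolic catalase, rose by 0.32 ± 0.06.

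**Figure D3:**
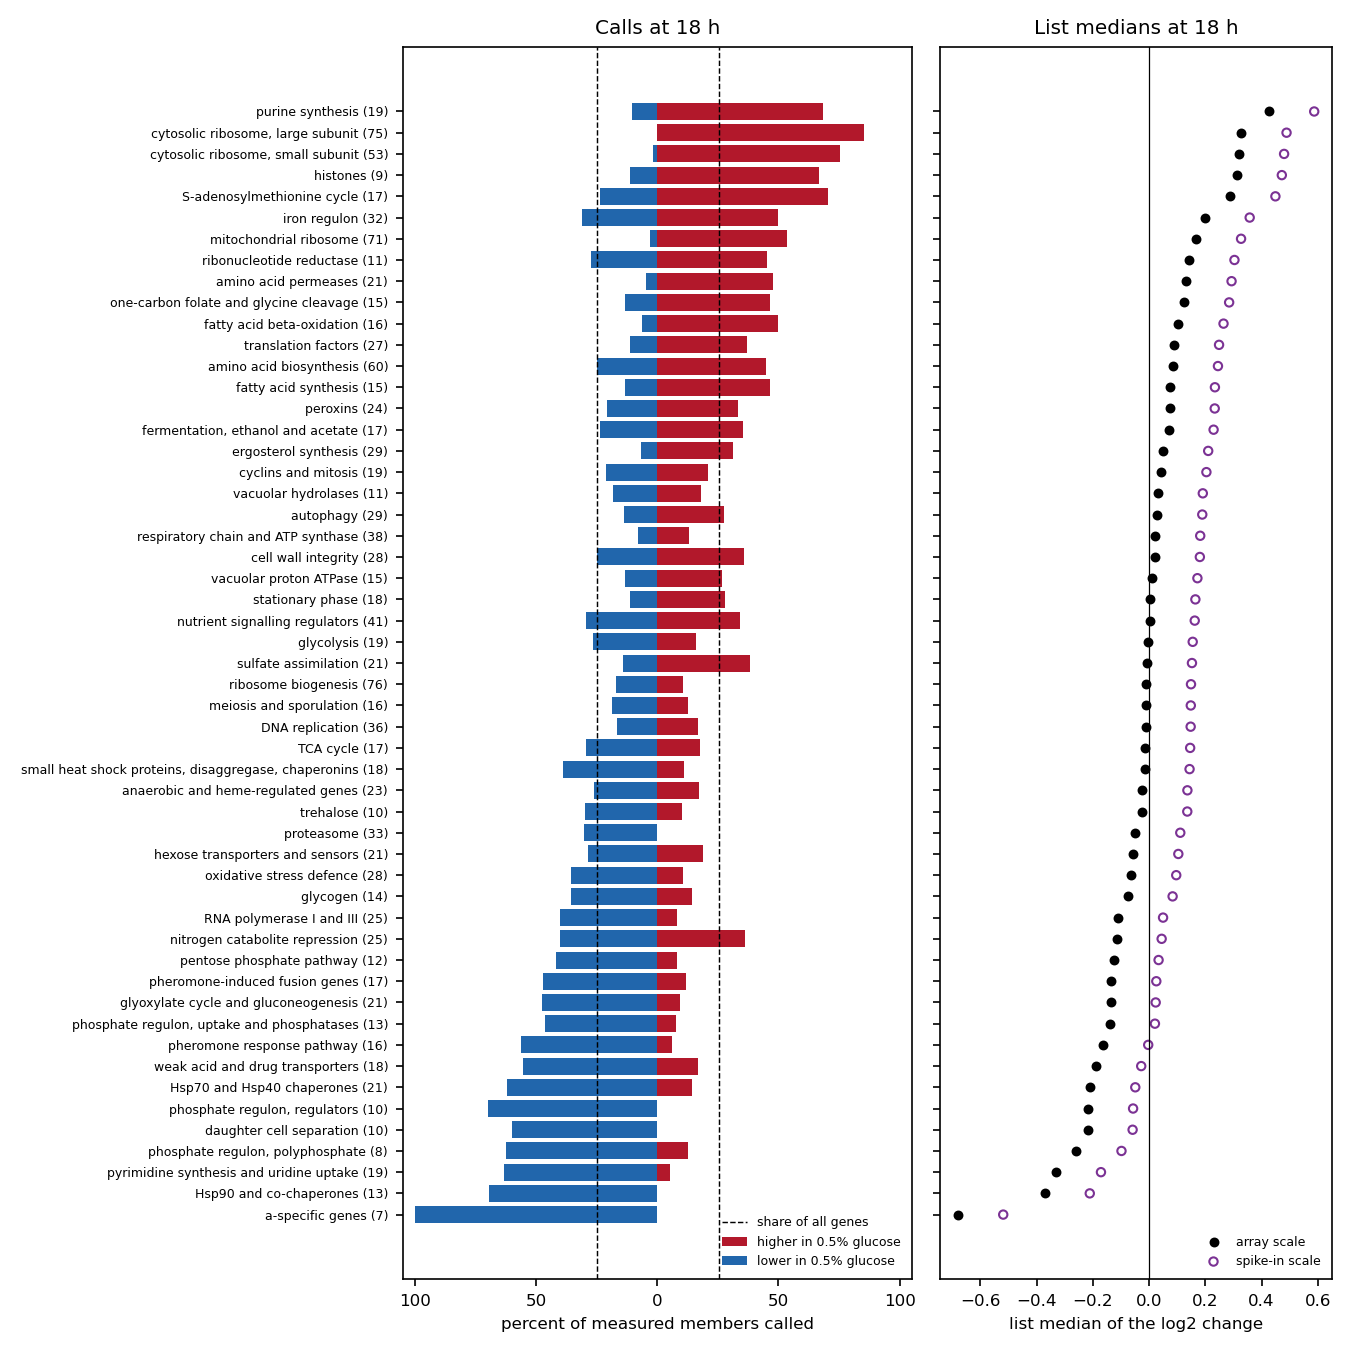
For 53 gene lists, each with the number of measured members in brackets, the left panel gives the percent of members called higher (red, to the right) and lower (blue, to the left) in 0.5% glucose at 18 h, with the shares over all genes, 25.5% and 24.8%, dashed; the right panel gives each list's median log2 change on the array scale (filled) and on the spike-in scale (open). Purine synthesis (0.43) is at the top and the a-specific genes (-0.68) at the bottom, and the lists in the middle with medians between about -0.14 and 0 on the array scale are above 0 on the spike-in scale.

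Sugar uptake genes were mixed. HXT4, a hexose transporter of intermediate affinity, measured 6.60, 6.19 and 6.32 in 2% glucose and 4.38, 4.14 and 4.24 in 0.5% glucose. The groups were far apart, with a 4.32-fold difference (-2.11 ± 0.10, adjusted p = 7.61e-13). HXT2, a transporter made at low glucose, went the other way, at 4.26, 4.04 and 4.19 in 2% glucose and 5.24, 5.26 and 5.34 in 0.5% glucose, and rose by 1.12 ± 0.11 (adjusted p = 4.19e-08). HXT7, a high-affinity transporter on a shared probe set, changed by -0.48 ± 0.07. The list had 4 of 21 higher and 6 lower (median -0.06, 0.10 on the spike-in scale). That was 19% and 28.6%, beside 25.5% and 24.8% over all genes. SUC2, the invertase that splits sucrose and a classic target of glucose repression, measured 9.20, 9.30 and 9.39 in 2% glucose and 7.99, 7.94 and 8.01 in 0.5% glucose, without overlap, and changed by -1.32 ± 0.05, or 2.49-fold (adjusted p = 9.87e-15). MAL32, a maltase on a shared probe set, changed by -1.30 ± 0.08.

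Glycolysis genes had 3 of 19 higher, 5 lower and 11 not called (median -0.01, 0.16 on the spike-in scale). The lower genes included the sugar kinases HXK1 (-0.43 ± 0.05) and HXK2 (-0.34 ± 0.07), the hexokinase relative EMI2 (-0.82 ± 0.07) and PFK27 (-0.53 ± 0.10), which makes the activator of phosphofructokinase; HXK2 did not pass on the spike-in scale with the block. PYK2, the minor pyruvate kinase, rose by 0.51 ± 0.04. Fermentation and acetate genes had 6 of 17 higher and 4 lower (median 0.07). ADH2, which oxidizes ethanol and is repressed by glucose, measured 11.84, 11.72 and 11.70 in 2% glucose and 11.60, 11.62 and 11.63 in 0.5% glucose. Its change of -0.13 ± 0.05 (adjusted p = 0.021) became 0.03 on the spike-in scale and was no longer called with only the 6 arrays of 18 h or without 2% array 1 or 0.5% array 1. ACS1, the acetyl-CoA synthetase induced on ethanol, changed by -0.16 ± 0.04, and by 0.0016 on the spike-in scale. ALD6, the cytosolic aldehyde dehydrogenase, fell by 0.46, while ALD3 and ALD4 rose by 0.61 and 0.25, as did PDC1, pyruvate decarboxylase, by 0.25.

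The glyoxylate cycle, gluconeogenesis and carnitine shuttle had 10 of 21 genes lower and 2 higher (median -0.14, 0.02 on the spike-in scale). CRC1, the mitochondrial carnitine carrier, measured 9.43, 9.36 and 9.34 in 2% glucose and 8.82, 8.94 and 8.78 in 0.5% glucose, with the groups apart, and changed by -0.53 ± 0.05 (adjusted p = 3.06e-08). The carnitine acetyltransferases YAT1 and YAT2 changed by -0.39 ± 0.04 and -0.43 ± 0.07, and MDH2, cytosolic malate dehydrogenase, by -0.39 ± 0.04; YAT1 and MDH2 did not pass on the spike-in scale with the block. ICL1, isocitrate lyase of the glyoxylate cycle, rose by 0.17 ± 0.05, and CIT2, the peroxisomal citrate synthase, at -0.02 ± 0.04, did not pass. The TCA cycle had 3 of 17 higher and 5 lower (median -0.01, 0.15 on the spike-in scale), with SDH1, of succinate dehydrogenase, at 0.23 ± 0.05 and IDH2, of isocitrate dehydrogenase, at -0.35 ± 0.06, which was not called on the spike-in scale with the block.

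Of 38 respiratory chain and ATP synthase genes 30 were not called, 5 were higher and 3 lower (median 0.02). The members that fell at least 2-fold were minor isoforms known to be made when oxygen or heme is low. CYC7, the minor isoform of cytochrome c, measured 9.59, 9.63 and 9.64 in 2% glucose and 7.46, 7.49 and 7.50 in 0.5% glucose. It was 4.39-fold lower in 0.5% glucose (-2.14 ± 0.08, adjusted p = 1.07e-14) with an array spread under 0.1 in each group. COX5B, the minor isoform of a cytochrome oxidase subunit, had means of 8.04 ± 0.04 in 2% and 7.03 ± 0.08 in 0.5% glucose (SD, n = 3), without overlap of the arrays, and changed by -1.01 ± 0.06 (adjusted p = 4.87e-11). CYC1, the major cytochrome c, at 8.90, 8.87 and 8.95 and 8.93, 9.22 and 9.23, overlapped between the groups. Its change of 0.22 ± 0.07 was not called when 0.5% array 2 or array 3 was left out. In the wider list of anaerobic and heme-regulated genes 4 of 23 were higher and 6 lower (median -0.02, 0.14 on the spike-in scale), with TIR1, a cell wall protein of anaerobic cells, at 0.72 ± 0.07 and AAC1, a minor ADP/ATP carrier, at -0.45 ± 0.04.

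In the storage and fat lists no gene was called with a change of 2-fold or more. The shares over all genes were 25.5% higher and 24.8% lower. Trehalose genes had 1 of 10 higher and 3 lower (median -0.02, 0.14 on the spike-in scale), with the trehalases NTH2 at -0.47 ± 0.05 and NTH1 at -0.27 ± 0.04, the latter not called on the spike-in scale with the block, and TPS2, a synthesis subunit, at 0.17 ± 0.04. Glycogen genes had 2 of 14 higher and 5 lower (median -0.08, 0.08 on the spike-in scale). GLC3, the branching enzyme, was among the higher, at 0.34 ± 0.05. Among the lower were GSY2 at -0.33 ± 0.05 and GDB1 at -0.25 ± 0.05, which were -0.17 and -0.09 on the spike-in scale. Fatty acid beta-oxidation had 8 of 16 higher and 1 lower (median 0.10). POX1, the acyl-CoA oxidase, measured 7.93, 7.76 and 7.63 in 2% glucose and 8.21, 8.35 and 8.37 in 0.5% glucose, with no overlap, and rose by 0.54 ± 0.07 (adjusted p = 4.17e-06). FOX2, the next enzyme, rose by 0.38 ± 0.04, and PXA1, a transporter of fatty acids into the peroxisome, by 0.41 ± 0.07. Fatty acid synthesis had 7 of 15 higher and 2 lower (median 0.07), FAS1 at 0.33 ± 0.06 and FAS2 at 0.30 ± 0.05.

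Among amino acid genes, permeases had 10 of 21 higher and 1 lower (median 0.13). ALP1, a transporter of basic amino acids, measured 5.80, 5.72 and 5.67 in 2% glucose and 7.54, 7.39 and 7.47 in 0.5% glucose. The 0.5% arrays were all above 7 and the 2% arrays all below 6, a 3.33-fold difference (1.74 ± 0.07, adjusted p = 9.9e-14). Outside the list, PTR2, the importer of small peptides, rose by 1.39 ± 0.14, while OPT2, an oligopeptide transporter, measured 6.22, 6.21 and 6.29 in 2% glucose and 4.59, 4.54 and 4.58 in 0.5% glucose and changed by -1.67 ± 0.08 (adjusted p = 7.3e-13), the groups apart. Amino acid biosynthesis had 27 of 60 higher and 15 lower (median 0.08). That was 45% and 25%, beside 25.5% and 24.8% over all genes. LEU1, of leucine synthesis, rose by 0.83 ± 0.05. ARG1, of arginine synthesis, measured 7.77, 7.67 and 7.64 in 2% glucose and 6.71, 6.51 and 6.40 in 0.5% glucose and changed by -1.15 ± 0.08 (adjusted p = 6.06e-10), and its groups did not overlap. SER3, of serine synthesis, changed by -0.83 ± 0.05. Genes under nitrogen catabolite repression, which are off while a good nitrogen source is present, had 9 of 25 higher and 10 lower (median -0.12, 0.04 on the spike-in scale), with PUT1 and CAR2, of proline and arginine use, at 0.47 ± 0.05 and 0.52 ± 0.05 and the permeases MEP3, for ammonium, and DAL5, for allantoate, at -0.75 ± 0.07 and -0.49 ± 0.05.

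Nutrient signalling genes, of the kinase and transcription factor routes that have been linked to lifespan, had 14 of 41 higher and 12 lower (median 0.0019). These were 34.1% and 29.3%, beside 25.5% and 24.8% over all genes. MSN2 and MSN4 encode a pair of related stress transcription factors and moved in opposite directions. MSN2 measured 6.04, 6.16 and 6.13 in 2% glucose and 6.78, 6.93 and 6.92 in 0.5% glucose, without overlap, and rose by 0.76 ± 0.05 (adjusted p = 2.53e-10). MSN4 measured 6.41, 6.35 and 6.42 in 2% glucose and 5.55, 5.60 and 5.61 in 0.5% glucose, also without overlap, and changed by -0.81 ± 0.07 (adjusted p = 1.08e-08). MIG1, the glucose repressor, rose by 0.56 ± 0.06, and HAP4, the limiting activator of respiratory genes, changed by -0.48 ± 0.07. The kinases RIM15 (-0.15 ± 0.06, adjusted p = 0.0307) and SCH9 (-0.17 ± 0.06, adjusted p = 0.028) were lower by small amounts. RIM15 became 0.0096 on the spike-in scale, and both calls were lost without 2% array 1 or 3 or 0.5% array 2 or 3, that of SCH9 also with only the 6 arrays. The sirtuin gene SIR2 (-0.20 ± 0.12) and the nicotinamidase gene PNC1 (-0.04 ± 0.04) did not pass, and SIR2 passed only with the replicate block among the settings tried.

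The list of weak acid and drug transporter genes also holds the enzyme gene FDH1. Of the 18 list members 10 were lower and 3 higher (median -0.19, -0.03 on the spike-in scale), FDH1 among the latter. TPO1, a polyamine exporter, changed by -0.96 ± 0.08, PDR15, a multidrug exporter, by -0.93 ± 0.05, and PDR12, the exporter of weak organic acids, by -0.63 ± 0.10. FDH1, formate dehydrogenase, measured 6.62, 6.52 and 5.92 in 2% glucose and 7.58, 7.73 and 7.33 in 0.5% glucose, and although the 2% arrays were widely spread the groups did not overlap. It rose by 1.19 ± 0.13 (adjusted p = 2.36e-07). Genes associated with stationary phase had 5 of 18 higher and 2 lower (median 0.0043), with SNZ1 and SNO1, of vitamin B6 synthesis, at 0.71 ± 0.06 and 0.55 ± 0.10. BSC4, of unknown role, measured 4.42, 4.65 and 4.80 in 2% glucose and 2.73, 2.70 and 2.37 in 0.5% glucose, without overlap, and changed by -2.03 ± 0.12 (adjusted p = 2.84e-11).

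The next question was how the 18 h effect sits between those of the neighbouring harvests, which were measured on other arrays. Of the 1388 genes higher at 18 h, 783 were also higher at 12 h (56.4% of these, and 44.6% of all genes higher at 12 h) and 256 were lower there. At 24 h 1033 were also higher (74.4%, and 60% of the genes higher at 24 h) and 61 lower. Of the 1353 genes lower at 18 h, 994 were also lower at 12 h (73.5%, and 44.3% of the genes lower at 12 h) and 976 at 24 h (72.1%, and 57% of the genes lower at 24 h). The background at 12 h was 32.2% of all genes higher and 41.2% lower, and at 24 h 31.6% and 31.4%. Altogether 587 genes were higher and 720 lower at 12, 18 and 24 h, while 78 were higher and 56 lower at 18 h and called at neither neighbour. CRC1 was among the latter, at -0.08 ± 0.05 at 12 h and 0.03 ± 0.05 at 24 h.

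The difference between the effects was tested within the same fit. The 18 h effect was above that at 12 h for 1771 genes (32.5%) and below it for 1334 (24.5%), and above that at 24 h for 771 genes (14.1%) and below it for 748 (13.7%). On the spike-in scale these counts fell to 48, 564, 5 and 31, and with the replicate block on that scale they were 338, 1759, 151 and 471. They depend on the scale, and against 12 h more genes were above than below on the array scale and more below than above on the spike-in scale. SAM1 was the gene whose 18 h effect exceeded both neighbours among the 5 highest of each. Its change was 0.19 ± 0.11 at 12 h and 1.49 ± 0.11 at 24 h, and its differences were 2.71 ± 0.15 (adjusted p = 4.95e-12) and 1.41 ± 0.15 (adjusted p = 5.53e-07). The SAM1 level in 2% glucose was 4.24 ± 0.11, 3.33 ± 0.17 and 4.18 ± 0.07 (SD, n = 3) at 12, 18 and 24 h, and in 0.5% glucose 4.43 ± 0.22, 6.22 ± 0.23 and 5.67 ± 0.05. The 18 h samples were thus the lowest of the 3 harvests in 2% glucose and the highest in 0.5% glucose. MET6 went from a change of -0.98 ± 0.05 at 12 h to 0.70 ± 0.05 at 18 h, a difference of 1.68 ± 0.08 (adjusted p = 3.18e-13).

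**Figure D4:**
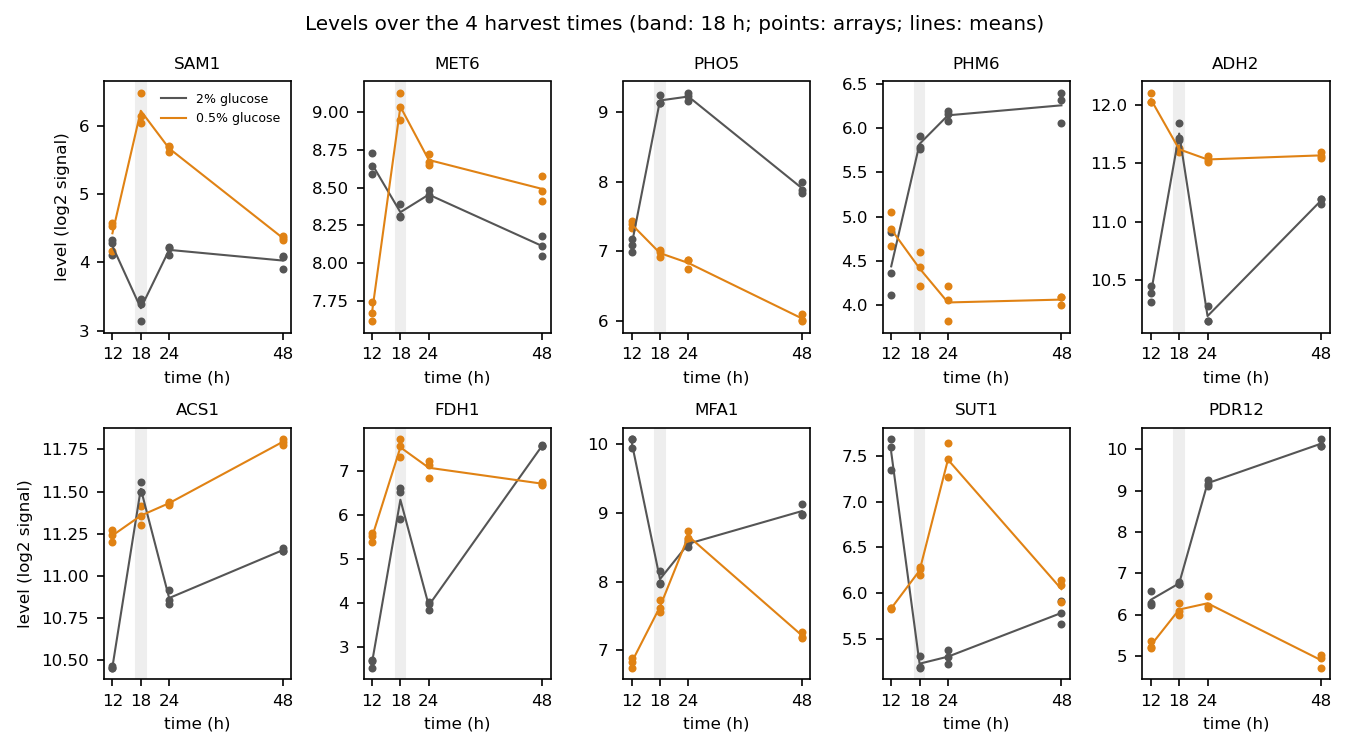
The log2 signal of 10 genes is plotted against hours after inoculation (12, 18, 24 and 48 h) in 2% glucose (grey) and 0.5% glucose (orange), with points for arrays, lines through the means of 3 arrays and the 18 h harvest shaded. SAM1 is furthest apart at 18 h, MET6 is lower in 0.5% glucose at 12 h and higher at 18 h, PHO5 and PHM6 separate from 18 h on, ADH2 and ACS1 cross at 18 h, a crossing that is absent on the spike-in scale, and SUT1 is lower in 0.5% glucose at 12 h and higher at 18 h.

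The phosphate genes differed between harvests in the other direction. PHO5 was higher in 0.5% glucose at 12 h (0.30 ± 0.06) and lower at 18 h (-2.19 ± 0.06) and 24 h (-2.39 ± 0.06), a difference of -2.49 ± 0.08 between 18 h and 12 h (adjusted p = 1.58e-15). Its level in 2% glucose was 7.09 ± 0.10 at 12 h, 9.17 ± 0.07 at 18 h and 9.22 ± 0.06 at 24 h, beside 7.39 ± 0.04, 6.97 ± 0.06 and 6.83 ± 0.08 in 0.5% glucose. The rise in level between 12 h and 18 h was thus on the 2% side. PHM6 ran likewise, at 0.42 ± 0.14, -1.40 ± 0.14 and -2.11 ± 0.14 at the 3 harvests, with a difference between 18 h and 12 h of -1.82 ± 0.20 (adjusted p = 9.15e-08).

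The median change of the large-subunit ribosomal genes was 1.49 at 12 h and 0.33 at 18 h. The median level of these genes in 2% glucose was 8.10 at 12 h and 9.29 at 18 h, and in 0.5% glucose 9.76 and 9.64. Mitochondrial ribosomal genes went the other way between the harvests, with 6 higher and 41 lower at 12 h and 38 higher and 2 lower at 18 h. Autophagy genes, which recycle cell contents in starvation, had 3 of 29 higher and 21 lower at 12 h. At 18 h 8 were higher and 4 lower, or 27.6% and 13.8%. Over all genes 32.2% were higher and 41.2% lower at 12 h, and 25.5% and 24.8% at 18 h, so the higher share of autophagy genes at 18 h was close to that. ATG15, a vacuolar lipase, changed by 0.17 ± 0.07 at 12 h and 0.82 ± 0.07 at 18 h. ATG31 changed by -0.77 ± 0.06 and -0.60 ± 0.06. DNA replication genes were higher in 30 of 36 at 12 h, and at 18 h 6 were higher and 6 lower (median -0.01, 0.15 on the spike-in scale). The difference between harvests was not tested for these lists as such.

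Mating genes were lower at 12 h as well, where the a-specific median was -2.23. MFA1 changed by -3.21 ± 0.06 at 12 h, -0.40 ± 0.06 at 18 h and 0.11 ± 0.06 at 24 h, a difference of 2.80 ± 0.08 between 18 h and 12 h (adjusted p = 6.98e-16). AGA1 differed by 2.03 ± 0.13 between the same harvests and had a change of 0.40 ± 0.09 at 24 h. In 2% glucose the MFA1 level was 10.03 ± 0.07 at 12 h and 8.04 ± 0.10 at 18 h, and in 0.5% glucose 6.82 ± 0.07 and 7.63 ± 0.09, so the glucose levels came closer from both sides.

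Genes called in one direction at 18 h and in the other at both 12 h and 24 h were few. There were 12 genes higher at 18 h and lower at both neighbours, CYC1 among them, and 5 lower at 18 h and higher at both, which were ACS1, ADH2, GDH2, MET14 and YOR385W. GDH2 is the glutamate dehydrogenase that degrades glutamate, and with MET14 and YOR385W it was named after its values were seen. The ADH2 change was 1.67 ± 0.05 at 12 h, -0.13 ± 0.05 at 18 h and 1.34 ± 0.05 at 24 h. In 2% glucose its level was 10.38 ± 0.07, 11.75 ± 0.08 and 10.19 ± 0.08 at these harvests and in 0.5% glucose 12.05 ± 0.05, 11.62 ± 0.02 and 11.53 ± 0.02. At 48 h it was 11.18 ± 0.02 in 2% and 11.57 ± 0.03 in 0.5% glucose, so in 2% glucose 18 h was the highest harvest and 48 h the next. ACS1 in 2% glucose was also highest at 18 h, with 10.46 ± 0.01, 11.52 ± 0.04, 10.87 ± 0.04 and 11.15 ± 0.01 at 12, 18, 24 and 48 h. The negative values of ADH2 and ACS1 at 18 h were not negative on the spike-in scale, so their level at 18 h can be given only as close between the glucose levels.

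**Figure D5:**
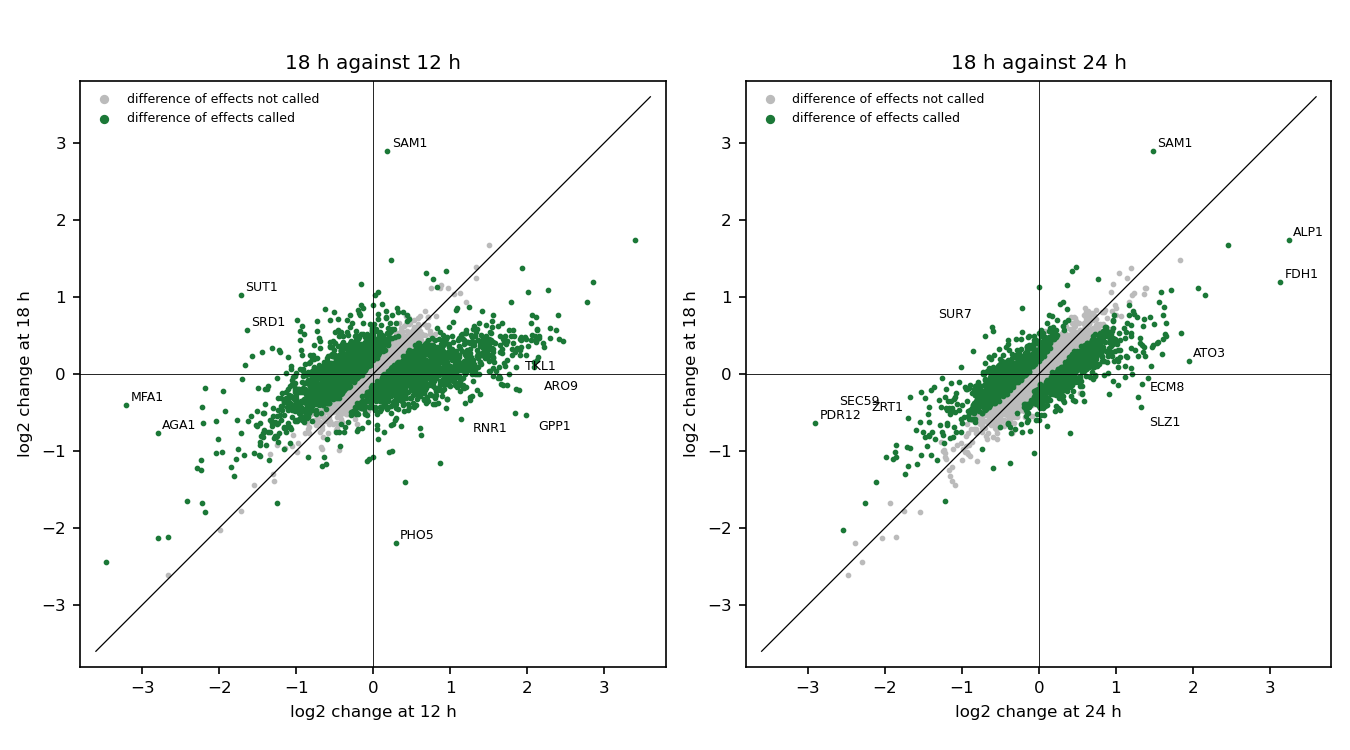
The log2 change in 0.5% against 2% glucose at 18 h (vertical axes) is plotted against that at 12 h (left) and 24 h (right) for 5449 genes, with genes whose difference of effects was called in green and the line of equal effects drawn. The cloud is flatter than the line in both panels, SAM1 lies above it in both, PHO5 lies below it at 12 h and PDR12 above it at 24 h; the number of green points depends on the scale, with 48 and 564 at 12 h and 5 and 31 at 24 h called higher and lower on the spike-in scale.

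Against 24 h the genes with the most negative difference included FDH1 and ALP1, whose effects of 3.13 ± 0.13 and 3.25 ± 0.07 at 24 h were beyond those at 18 h by -1.94 and -1.51 (18 h minus 24 h). In 2% glucose the FDH1 levels of the 12, 18, 24 and 48 h harvests were 2.65 ± 0.10, 6.36 ± 0.38, 3.95 ± 0.09 and 7.59 ± 0.02, so 18 h lay above both neighbours and 48 h was highest. PDR12 had the most positive difference, at 2.27 ± 0.14 (adjusted p = 1.32e-10), with a change of -2.90 ± 0.10 at 24 h. SUT1, a transcription factor of sterol uptake, changed by -1.71 ± 0.09 at 12 h, 1.02 ± 0.09 at 18 h and 2.16 ± 0.09 at 24 h, and its difference between 18 h and 12 h was 2.74 ± 0.12 (adjusted p = 3.16e-13).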

How the data were processed

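RNA of 24 arrays in 8 groups of 3 (Affymetrix Yeast Genome 2.0) was analysed, and the 6 arrays of 18 h were compared in depth. The log2 values were deposited by the authors, and per the submitters' processing notes Partek was used, with no version. That the values are on a log2 scale and quantile normalized was inferred from their range, 0.60 to 12.57, and their equal distribution on all arrays. How background was corrected and probes were summarized is, in the sources used here, not given. The number of arrays limits the precision.

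Of 10928 probe sets, 5498 had 1 Saccharomyces cerevisiae gene each by the platform annotation and gave 5449 genes, using the probe set with the highest mean for 47 genes. For 118 genes the probe set can also match a near copy. No sequences were used here. Levels were fitted by group mean in limma 3.58.1 (R 4.3.3) on all 24 arrays, and moderated p-values were adjusted by the Benjamini-Hochberg method over all 5449 genes for each comparison, at a threshold of 0.05. The fit was first tested on simulated data. The p-values measure the spread between cultures as the labels describe them. Summaries and plots used pandas 2.3.3, numpy 2.4.6 and matplotlib 3.10.9 under python 3.11.15.

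The members and the 55 gene lists (1317 members, 1285 measured) were chosen with earlier results of these data known. Named genes were the 12 highest and 12 lowest called genes without overlap of the arrays, above background and with a standard name, the 4 members per list (or fewer) with the largest moderated statistic, a panel of 33 genes, and the 5 highest and 5 lowest differences of effects against 12 h and against 24 h. The text describes part of the 249 genes so named, and others are marked as named after their values were seen. At 18 h the deviations of same-numbered arrays from their group means correlated at 0.307, 0.229 and 0.364, all above 0.1, so the replicate numbers were taken as pairs; the fit without this block is the main one, and the block an alternative. The other alternatives were quantile normalization again, median centring, the spike-in scale with and without the block, array weights, removal of dim genes, a robust fit with a variance trend, only the 6 arrays, averaged probe sets, and each array left out.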

Additional observations from a re-analysis of the deposited data

Results flagged for a closer look

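The results below were listed because the glucose effect at 18 h differed from that at 12 h or 24 h by a test of the difference within the fit of all arrays. Groups of 3 arrays were not tested for outlying samples.

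Against 12 h, 1771 genes had a higher and 1334 a lower effect at 18 h. The 5 highest differences were MFA1 at 2.80, SUT1 at 2.74, SAM1 at 2.71, SRD1 at 2.21 and AGA1 at 2.03. The 5 lowest were GPP1, a glycerol phosphatase, at -2.52, PHO5 at -2.49, RNR1, the large subunit of ribonucleotide reductase, at -2.35, ARO9, an aromatic aminotransferase, at -2.11 and TKL1, a transketolase, at -2.05. The changes of GPP1 were 1.99 ± 0.06 at 12 h and -0.53 ± 0.06 at 18 h, and those of RNR1 1.84 ± 0.11 and -0.51 ± 0.11. TKL1, at -0.19 ± 0.07 at 18 h, was not called there without 2% array 1 or 3 or without 0.5% array 1 or 2, with array weights or on the spike-in scale.

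Against 24 h, 771 genes had a higher and 748 a lower effect at 18 h. The 5 highest differences were PDR12 at 2.27, SAM1 at 1.41, SEC59, dolichol kinase, at 1.38, ZRT1, the high-affinity zinc transporter, at 1.29 and SUR7, a protein of plasma membrane domains, at 1.22. The 5 lowest were FDH1 at -1.94, ATO3, a membrane protein linked to ammonium export, at -1.78, SLZ1 at -1.76, ECM8 at -1.59 and ALP1 at -1.51. SUR7 changed by 0.61 ± 0.10 at 18 h and -0.61 ± 0.10 at 24 h.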

How the results depend on the processing

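The counts of genes called higher and lower at 18 h stayed within 1.5 times of 1388 and 1353 under renewed quantile normalization, median centring, removal of dim genes, a variance trend, array weights, only the 6 arrays, the replicate block and averaged probe sets. With single arrays left out the counts were 1222 to 1369 higher and 1148 to 1290 lower. The replicate block gave 1503 and 1490 and, among the 249 named genes, changed the call of SIR2 and no other call. The spike-in scale changed the results most. There 187 genes were higher, 59 lower and 21 lower at least 2-fold, and the differences of effects were called for 48 higher and 564 lower against 12 h and 5 higher and 31 lower against 24 h. With the replicate block on that scale, an alternative chosen after seeing the data, 334 genes were lower, 21 at least 2-fold, and the differences of effects were called for 338 higher and 1759 lower against 12 h and 151 higher and 471 lower against 24 h. Of the genes called in the main result 1387 remained higher and 333 lower with that block. The median of all genes moved to 0.16 on this scale, and its spike-in probe sets had an SD of 0.34 and 0.30 between arrays in 0.5% and 2% glucose. On the spike-in scale with and without the block ADH2, ACS1, ATH1, RIM15 and IDP1 no longer had negative values. They became 0.0257, 0.0016, 0.0123, 0.0096 and 0.0000 in that order, each below the gene's SE in the main fit. On the same scale 21 of 55 list medians changed from negative to positive. For 3 of these, oxidative stress defence, trehalose and the proteasome, both values exceeded the SD of the list median between arrays. That SD was taken on the array scale. On the spike-in scale the values were 0.0965, 0.1358 and 0.1109, below the SDs of 0.34 and 0.30 between the spike-in means. Of the 249 named genes 151 lost their call there without the block and 47 with it, and the cause was not tested. Signal over background limits the 92 genes at or below the background level at 18 h.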

Other observations

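Genes of the cell cycle and chromatin were not described above. Histone genes had 6 of 9 members higher and 1 lower, with a median of 0.31. HTA1, a histone H2A gene, measured 9.89, 9.90 and 9.97 in 2% glucose and 10.18, 10.31 and 10.33 in 0.5% glucose, with the groups apart, and rose by 0.35 ± 0.06 (adjusted p = 4.18e-05). HAT1, a histone acetyltransferase, measured 4.54, 4.49 and 4.65 in 2% glucose and 5.47, 5.82 and 5.75 in 0.5% glucose, also without overlap, and rose by 1.12 ± 0.11 (adjusted p = 7.73e-08). Cyclin and mitosis genes had 4 of 19 higher and 4 lower (median 0.04), with PCL1, a cyclin of late G1, at 1.07 ± 0.11, and WHI5, which holds back entry into the cycle, at 0.59 ± 0.09. Daughter cell separation had 6 of 10 members lower and 4 not called (median -0.22, -0.06 on the spike-in scale). Among the lower were AMN1 at -0.76 ± 0.04 and EGT2 at -0.50 ± 0.05. In the ribonucleotide reductase list 5 of 11 were higher and 3 lower (median 0.14), and of its protein inhibitors DIF1 rose by 0.66 ± 0.10 while SML1 changed by -0.48 ± 0.04.

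Other lists are given as counts higher and lower, beside 25.5% and 24.8% over all genes. Ergosterol synthesis had 9 and 2 of 29 (31% and 6.9%), and peroxins 8 and 5 of 24 (33.3% and 20.8%). Cell wall integrity had 10 and 7 of 28 (35.7% and 25%), and meiosis and sporulation 2 and 3 of 16 (12.5% and 18.8%). Vacuolar hydrolases had 2 and 2 of 11 (18.2% and 18.2%), and the vacuolar proton ATPase 4 and 2 of 15 (26.7% and 13.3%). The pentose phosphate pathway had 1 higher and 5 lower of 12 (median -0.13, 0.03 on the spike-in scale). Its GND1, 6-phosphogluconate dehydrogenase, changed by -0.57 ± 0.10, and the transketolase genes TKL1 and TKL2 by -0.19 ± 0.07 and 0.46 ± 0.06.

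Several pairs of related genes, picked after their values were seen, moved in opposite directions at 18 h on the array scale. They were MSN2 and MSN4 (0.76 and -0.81), TKL2 and TKL1 (0.46 and -0.19), HXT2 and HXT4 (1.12 and -2.11), ADE17 and ADE16 (1.48 and -0.14), SHM2 and SHM1 (1.16 and -0.24), and CYC1 and CYC7 (0.22 and -2.14). The differences within these pairs were not tested. TKL1 did not pass on the spike-in scale with or without the block, and CYC1 lost its call without 0.5% array 2 or 3. ADE16 was not lower on the spike-in scale, so ADE17 and ADE16 were not opposed there.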
